A study of Mus musculus with 2 samples.

Results

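The stathmins are a family of small tubulin-binding phosphoproteins encoded in the mouse by Stmn1, Stmn2, Stmn3 and Stmn4, and their transcripts were followed here in the embryonic hindbrain. The members were taken by gene symbol, a rule that uses no measured values, though earlier results of these data were known. These members are 4 of the 43346 Ensembl genes in the deposited gene tables. They carry 19 of the 103639 Ensembl transcripts in the transcript tables. All 4 genes had counts in both libraries, so none was lost to a filter. The study sequenced total RNA from hindbrain of healthy B6NCrl mouse embryos at embryonic day 13.5, with males and females pooled. A library was made from 10 ng of RNA above 200 nt in length for each of 2 biological replicates, which form 1 group. The design therefore holds no treated, mutant or control samples and no test between conditions, and the spread given below is that between 2 libraries. The labels give the libraries a shared donor but separate biosamples and do not say whether litters differed, so this spread may be partly technical.

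Stathmin proteins bind tubulin dimers through a long helical domain. They hold the dimers in a complex that cannot polymerise, and they promote the switch of microtubules from growth to shrinkage. Phosphorylation of serines in the protein weakens this binding. Stmn1 encodes the cytosolic stathmin (oncoprotein 18), which is abundant in dividing and in neural cells, while Stmn2 (SCG10), Stmn3 (SCLIP) and Stmn4 (RB3) encode mainly neuronal proteins with an additional N-terminal stretch. Palmitoylation of cysteines in that stretch anchors them to Golgi-derived membranes, and Stmn2 is best known from growth cones and from the maintenance of axons.

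The transcripts that carried most of each gene's signal differ in their coding exons, as read from GENCODE M21 transcript sequences and annotation (GRCm38, which is the mm10 build of the files). The leading transcripts Stmn1-201, Stmn2-201, Stmn3-201 and Stmn4-201 have coding sequences of 447, 537, 540 and 567 bases. A coding exon of exactly 192 bases is present in all 4 of them, in the same reading frame, and lies in the part of the protein that contacts tubulin. It is printed here because it is the stretch by which the 4 members can be compared base by base. Capitals mark the bases that are the same in all 4 genes, and each sequence runs 5′ to 3′ in the direction of the gene.
Stmn1, chr4:134472804-134472995, plus strand: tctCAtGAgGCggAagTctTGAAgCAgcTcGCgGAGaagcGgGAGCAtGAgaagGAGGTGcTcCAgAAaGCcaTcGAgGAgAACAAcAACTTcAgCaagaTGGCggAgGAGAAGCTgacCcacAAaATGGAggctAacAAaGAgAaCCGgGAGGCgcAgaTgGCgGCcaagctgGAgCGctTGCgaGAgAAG
Stmn2, chr3:8554792-8554983, plus strand: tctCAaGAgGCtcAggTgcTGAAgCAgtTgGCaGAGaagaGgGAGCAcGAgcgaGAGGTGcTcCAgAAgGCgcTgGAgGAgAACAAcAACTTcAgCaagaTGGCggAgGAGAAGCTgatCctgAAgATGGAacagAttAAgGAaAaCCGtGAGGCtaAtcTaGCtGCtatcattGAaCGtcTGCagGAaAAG
Stmn3, chr2:181307216-181307407, minus strand: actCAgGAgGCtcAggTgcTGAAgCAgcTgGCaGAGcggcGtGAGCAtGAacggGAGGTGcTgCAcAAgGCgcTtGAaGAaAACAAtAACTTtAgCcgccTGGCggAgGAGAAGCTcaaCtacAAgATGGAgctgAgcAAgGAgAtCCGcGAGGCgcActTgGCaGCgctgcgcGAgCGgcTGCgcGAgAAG
Stmn4, chr14:66357846-66358037, plus strand: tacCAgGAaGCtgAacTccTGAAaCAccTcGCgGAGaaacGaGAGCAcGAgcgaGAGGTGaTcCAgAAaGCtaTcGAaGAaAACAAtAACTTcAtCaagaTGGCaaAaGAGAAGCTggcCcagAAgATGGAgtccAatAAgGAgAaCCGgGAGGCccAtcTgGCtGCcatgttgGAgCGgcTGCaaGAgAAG
Of the 192 positions, 111 (57.8%) hold the same base in all 4 genes. Stmn1 and Stmn4 are the most alike of the 6 pairs in this exon, with 152 identical bases (79.2%), and Stmn3 and Stmn4 the least alike, with 134 (69.8%). Stmn1 shares 144 bases (75%) with Stmn2 and 141 (73.4%) with Stmn3. Stmn2 shares 142 (74.0%) with Stmn3 and 143 (74.5%) with Stmn4.

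A second coding exon, of 96 bases, is present in Stmn2-201, Stmn3-201 and Stmn4-201 and has no counterpart in Stmn1-201. It encodes most of the N-terminal stretch that sets the membrane-bound members apart from Stmn1. Capitals mark the in-frame cysteine codons (TGC or TGT, counted from the start codon).
Stmn2, chr3:8541841-8541936, plus strand: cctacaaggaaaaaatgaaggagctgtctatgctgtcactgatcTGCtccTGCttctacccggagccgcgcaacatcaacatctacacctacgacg
Stmn3, chr2:181309147-181309242, minus strand: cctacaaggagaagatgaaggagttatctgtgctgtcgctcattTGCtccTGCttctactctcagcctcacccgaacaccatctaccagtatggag
Stmn4, chr14:66355586-66355681, plus strand: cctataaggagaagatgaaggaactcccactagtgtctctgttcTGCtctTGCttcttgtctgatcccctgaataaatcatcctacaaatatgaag
Each of the 3 exons holds 2 cysteine codons with 1 codon between them. They are codons 22 and 24 in Stmn2, 22 and 24 in Stmn3, and 20 and 22 in Stmn4. Stmn2 and Stmn3 have 72 of 96 bases in common (75%), against 63 (65.6%) for Stmn2 and Stmn4 and 64 (66.7%) for Stmn3 and Stmn4. The plot of spliced exons shows where both exons lie.

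**Figure D1:**
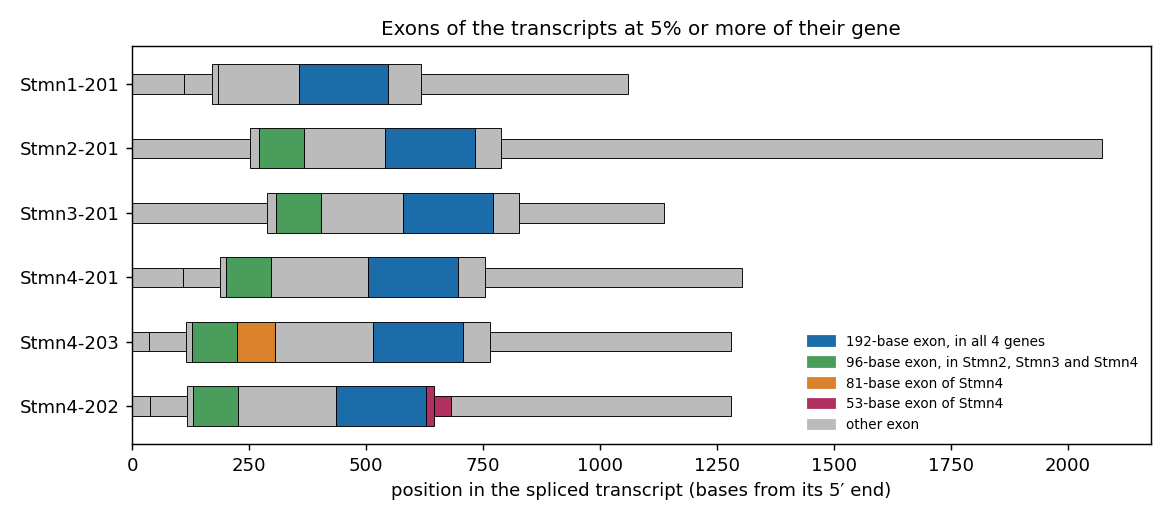
Exons of the 6 stathmin transcripts that carried 5% or more of their gene's TPM in either library, drawn against position in the spliced transcript in bases from the 5′ end, with tall boxes for coding and low boxes for noncoding sequence. The 192-base exon is present in all 6 transcripts and the 96-base exon in all but Stmn1-201, while the 81-base exon is drawn in Stmn4-203 and the 53-base exon in Stmn4-202.

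Depth was similar in the 2 libraries, with 33080194 estimated counts in replicate 1 and 38756411 in replicate 2. A TPM, the level per transcript length scaled to the library total, of 1 or more was reached by 15876 and 15883 genes in replicates 1 and 2. Markers set the tissue context. All 8 hindbrain markers were detected, meaning 1 TPM or more in both libraries, and they were led by the transcription factor genes Gbx2 at 44.9 ± 0.120 TPM, Hoxb2 at 34.9 ± 4.88 and Hoxa2 at 33.4 ± 0.721 (SD, n = 2). Of 5 forebrain markers 1 was detected, Lhx2, at 18.6 ± 0.856 TPM, and Emx1 was lowest at 0.0550 ± 0.0212 (SD, n = 2). The 9 postmitotic neuron and 9 neural progenitor markers were all detected, with medians of 298 and 41.4 TPM.

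Stmn1 was by far the most abundant member. The gene (ENSMUSG00000028832, chromosome 4, 134468320 to 134473843, plus strand) had 5638 TPM in replicate 1 and 5617 TPM in replicate 2, from 111485 and 131127 estimated counts. The libraries were nearly level, and the mean was 5628 ± 15.1 TPM (SD, n = 2), a coefficient of variation of 0.268%. It ranked 10 among 25551 Ensembl genes with a count and 6 among 17576 protein-coding genes, in a place between Ftl1 (ferritin light chain) at 5738 ± 39.7 TPM and Tmsb4x (an actin-binding peptide) at 5318 ± 114 TPM (SD, n = 2). Both gaps to these neighbours exceeded the SDs. In bulk tissue such as this, fewer cells of a type and less RNA per cell cannot be told apart.

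Stmn3 and Stmn2, the SCLIP and SCG10 genes of neurons, lay close together below it. Stmn3 (ENSMUSG00000027581, chromosome 2, 181306459 to 181314500, minus strand) had 945 TPM in replicate 1 and 922 TPM in replicate 2, from 20250 and 23325 counts. Its mean was 934 ± 16.6 TPM (SD, n = 2), with rank 91 among all genes and 74 among protein-coding genes. Stmn2 (ENSMUSG00000027500, chromosome 3, 8509360 to 8561606, plus strand) had 911 TPM in replicate 1 and 869 TPM in replicate 2, from 36281 and 41056 counts. The range of Stmn2 over the libraries stayed below that of Stmn3, with a mean of 890.0 ± 29.8 TPM (SD, n = 2), rank 103 among all genes and 86 among protein-coding genes. The protein-coding genes next to Stmn2 in level, Atp5g3 at 891 ± 25.6 TPM and Eno1 at 877 ± 53.6 TPM (SD, n = 2), did not differ from it beyond the spread. For Stmn3 the gene above, Sumo2, had 966 ± 1.86 TPM and the gene below, Dynlt1b, had 928 ± 9.48 TPM (SD, n = 2), the second of them within the spread.

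Stmn4, the RB3 gene, was the lowest member and still stood among the more abundant transcripts of the tissue. The gene (ENSMUSG00000022044, chromosome 14, 66344296 to 66361680, plus strand) had 394 TPM in replicate 1 and 371 TPM in replicate 2, from 9599 and 10717 counts. Its mean was 383 ± 16.4 TPM (SD, n = 2), with rank 343 among all genes and 307 among protein-coding genes. Its neighbours Serf1, at 384 ± 6.84 TPM, and Prdx1, at 381 ± 0.714 TPM (SD, n = 2), could not be told from it beyond the spread. The coefficient of variation was 4.29% for Stmn4, 3.35% for Stmn2 and 1.78% for Stmn3.

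The 4 genes together held 7889 TPM in replicate 1 and 7779 TPM in replicate 2, or 0.835% and 0.827% of the TPM of all Ensembl genes. Stmn1 supplied 71.8 ± 0.522% of this family sum, Stmn3 11.9 ± 0.0931%, Stmn2 11.4 ± 0.268% and Stmn4 4.89 ± 0.161% (SD, n = 2). Most stathmin transcripts were therefore from the gene without the membrane exon.

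The order of the levels was the same in both libraries, with Stmn1 first, then Stmn3, Stmn2 and Stmn4. On the log2(TPM + 1) scale, Stmn1 exceeded Stmn3 by 2.59 ± 0.0217, Stmn2 by 2.66 ± 0.0445 and Stmn4 by 3.88 ± 0.0579 (SD, n = 2). As ratios of TPM, Stmn1 stood 5.96-fold above Stmn3 in replicate 1 and 6.09-fold in replicate 2, and 14.3-fold and 15.1-fold above Stmn4. Stmn3 exceeded Stmn4 by 1.28 ± 0.0362 and Stmn2 exceeded Stmn4 by 1.22 ± 0.0134 (SD, n = 2). These differences were many times their SDs.
The Stmn2 to Stmn3 difference was the smallest of the 6. It was -0.07 ± 0.0227 on the same scale (SD, n = 2), with TPM ratios of Stmn2 over Stmn3 of 0.964 in replicate 1 and 0.942 in replicate 2. Its sign depends on the division by length, since the effective length was 1928 bases for Stmn2 and 1037 bases for Stmn3 in replicate 1. By counts Stmn2 was the larger, at 1.79 and 1.76 times the count of Stmn3 in replicates 1 and 2. In both libraries the deposited intervals of TPM were disjoint for all 6 pairs. These intervals do not cover the spread between samples, and they hold more than the uncertain assignment of reads. For Stmn3 in replicate 1 the posterior SD of the count was 0, yet the interval ran from 907 to 932 TPM. The level of the intervals is not stated. They surround a posterior mean that was lower than the TPM for each gene, and the TPM of all 4 genes lay above its own interval in both libraries. For Stmn1 in replicate 1 the interval ran from 5450.25 to 5516 TPM.

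**Figure D2:**
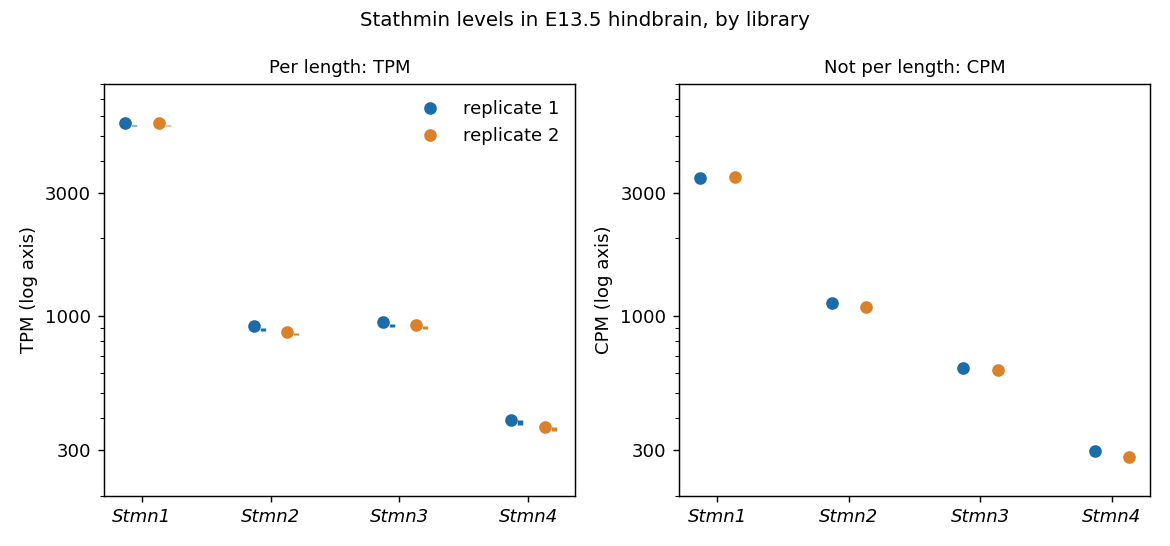
Level of each stathmin gene in replicate 1 (blue, left) and replicate 2 (orange, right) of the E13.5 hindbrain, as TPM on the left and as CPM, the library-scaled count not divided by length, on the right, both on log axes, with the deposited TPM interval as a short bar beside each TPM point. Stmn1 lies at 5638 and 5617 TPM, well above the other genes, and the order of Stmn2 and Stmn3 differs between the panels.

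Most of the family was carried by 1 protein-coding transcript per gene, with Stmn4 as the exception. Stmn1-201 held 98.8% of Stmn1 in both libraries (98.8 ± 0.0566%, SD, n = 2), and none of the other 4 Stmn1 transcripts passed 0.52%. Stmn2-201 held 95.6% in replicate 1 and 96.4% in replicate 2 (96.0 ± 0.537%, SD, n = 2), and Stmn3 has a single annotated transcript. For comparison, the leading transcript held a median of 66.8% (quartiles 48.7% and 87.8%) over 6977 genes with 2 or more transcripts and a mean TPM of 10 or more. The leading share was smaller than that of Stmn1 in 94.7% of these genes, smaller than that of Stmn2 in 88.0% and smaller than that of Stmn4 in 42.6%. Stmn2 had the largest share of noncoding transcripts, 4.38% in replicate 1 and 3.62% in replicate 2. Most of that TPM came from Stmn2-203, a processed transcript of the last exon region with 131 and 120 counts, whereas the longer retained-intron transcript Stmn2-202 held 1.00% and 0.85% of the TPM on 623 and 598 counts.

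Stmn4 was spread over 3 coding transcripts. Stmn4-201 held 61.9% of the gene's TPM in replicate 1 and 60.4% in replicate 2, Stmn4-203 held 26.99% and 28.8%, and Stmn4-202 held 8.73% and 8.32%. The order was the same in both libraries. In TPM, Stmn4-201 had 244 and 224, Stmn4-203 had 106 and 107, and Stmn4-202 had 34.4 and 30.9 in replicates 1 and 2. The deposited intervals of the 3 transcripts did not meet in either library. In replicate 1 they ran from 225 to 251 TPM, from 91.2 to 113 TPM and from 23.8 to 39.7 TPM.

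The forms differ by 2 exons, which are printed because they change the protein and tell the transcripts apart. The first is an 81-base exon between the membrane exon and the next coding exon, and it lengthens the coding sequence to 648 bases in Stmn4-203, against 567 in Stmn4-201. It is given whole in capitals.
Stmn4 81-base exon, chr14:66356269-66356349, plus strand: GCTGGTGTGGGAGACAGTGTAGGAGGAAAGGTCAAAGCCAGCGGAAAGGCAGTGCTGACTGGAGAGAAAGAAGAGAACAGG
Transcripts with this exon, which also include the minor Stmn4-204 and Stmn4-206, held 27.2% of Stmn4 in replicate 1 and 29.9% in replicate 2 (28.5 ± 1.87%, SD, n = 2). The other exon has 53 bases and follows the 192-base exon. It brings a stop codon, so that Stmn4-202 has 528 coding bases and ends in another sequence than Stmn4-201. Both ends are shown with the stop codon in capitals.
End in Stmn4-202, chr14:66358679-66358699, plus strand: gagccgcctgctgcgcggTGA
End in Stmn4-201, chr14:66361075-66361134, plus strand: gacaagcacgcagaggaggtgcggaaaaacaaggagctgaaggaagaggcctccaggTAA
Transcripts with the 53-base exon, Stmn4-202 and Stmn4-204, held 8.73% in replicate 1 and 9.09% in replicate 2 (8.91 ± 0.255%, SD, n = 2). Stmn4-204, which joins both exons, was listed at 0 counts in replicate 1 and at 88.4 in replicate 2. Its deposited TPM intervals overlapped, with upper bounds of 6.63 and 9.40, so a difference between the libraries was not detectable for it. A further 66-base exon, in Stmn4-206 and Stmn4-209, was in 0.22% and 0.28% of the gene's TPM, and Stmn4-209 itself was listed at 0 in both libraries.

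**Figure D3:**
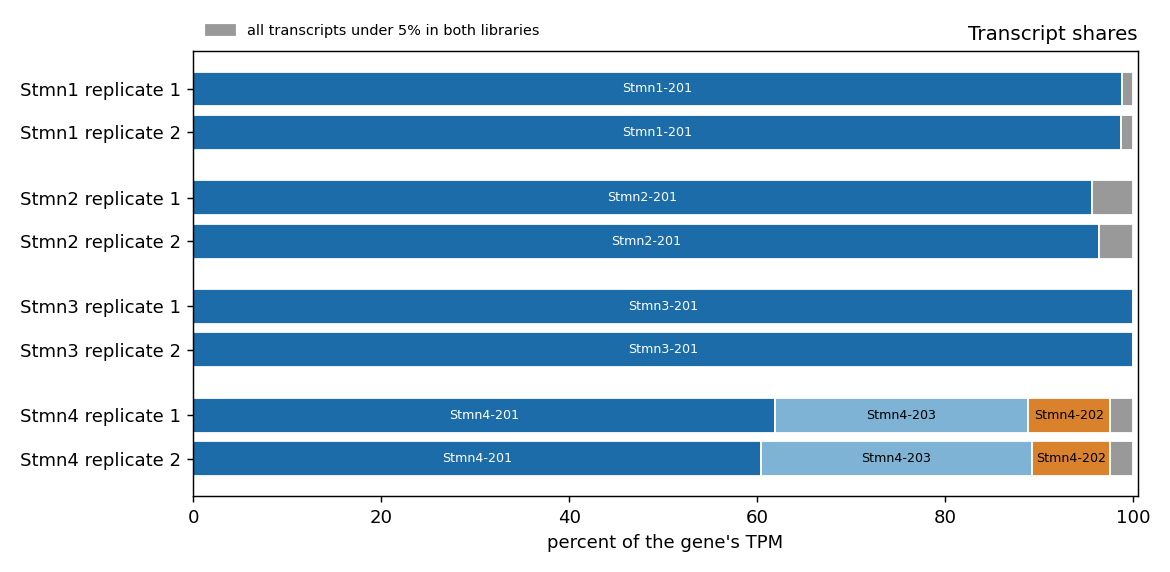
Percent of each stathmin gene's TPM carried by its transcripts in replicates 1 and 2, with the 13 transcripts under 5% in both libraries summed in grey. Stmn1, Stmn2 and Stmn3 are each nearly a single bar, while Stmn4 divides into Stmn4-201 at 61.9% and 60.4%, Stmn4-203 at 26.99% and 28.8%, and Stmn4-202 at 8.73% and 8.32%.

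Transcripts of the 4 genes can be told from one another by exact runs of 50 bases. That length was a choice made here, not the length of the reads, and matches with mismatches were not searched. No run of 50 bases is shared between transcripts of any 2 members, and the longest run shared between leading transcripts is 43 bases, between Stmn1-201 and Stmn2-201. In the other 5 pairs it is 16 to 21 bases. Outside the family, 224 genes share runs of 50 bases, on either strand, with the noncoding Stmn2 transcripts but not with Stmn2-201. The posterior SD of the Stmn2 gene count was 0 in both libraries. Stmn1 has a near copy outside the family, the processed pseudogene Gm11223 (chromosome 4, 69925630 to 69926079, minus strand), which was named after its values were seen. It shares 351 of the 1011 50-base runs (34.7%) of Stmn1-201. Gm11223 was given 450.35 and 493 counts in replicates 1 and 2, equal to 0.404% and 0.376% of the Stmn1 count, and 59.8 ± 3.25 TPM (SD, n = 2). The posterior SD of its count, 25.7 in replicate 1 and 30.1 in replicate 2, was the same as that of Stmn1 in each library. The split of reads between this pair is therefore uncertain, by an amount that is small beside Stmn1. The microRNA gene Gm23634 lies within Stmn1 and was listed at 0 counts with an effective length of 0 in both libraries. Stmnd1, whose symbol marks a stathmin domain, had 1 count in each library, which is below the floor of 3 counts.

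Replicate 1 stood slightly above replicate 2 for each member in TPM. As log2 ratios of TPM + 1, replicate 1 over replicate 2, the values were 0.09 for Stmn4, 0.07 for Stmn2, 0.04 for Stmn3 and 0.01 for Stmn1. None of the 4 passed a 1.5-fold difference, a rule passed by 3.67% of the 15878 genes that averaged at least 1 TPM and by 0.354% of the 1697 genes that averaged at least 100 TPM. The deposited intervals of the libraries were disjoint for Stmn2 and Stmn4, 2 of 4 members, and met for Stmn1 and Stmn3. Intervals were disjoint in 9.27% of genes at 1 TPM or more and in 18.1% of genes at 100 TPM or more. Disjoint intervals with a higher value in replicate 1 were found in 4.82% of genes at 1 TPM or more and in 9.49% at 100 TPM or more.
The counting error alone, as a 95% interval of the log2 ratio, ran from 0.05 to 0.13 for Stmn4 and from -0.01 to 0.02 for Stmn1. For Stmn2 it ran from 0.05 to 0.09, and for Stmn3, whose deposited intervals met, from 0.01 to 0.06. These intervals do not cover the spread between samples, and 2 libraries of 1 group allow no test of it. A smaller absolute difference than that of Stmn4 was seen in 80.9% of genes with 100 TPM or more, and a smaller one than that of Stmn1 in 6.66% of them. The median ratio was 0.01 over these genes and 0.05 over the 4 stathmins. For Stmn1 the sign changed with the scaling, being below 0 with FPKM (another level per length), with the posterior mean TPM, with centring on the median gene and with the TMM and DESeq2 scalings of counts between libraries.

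**Figure D4:**
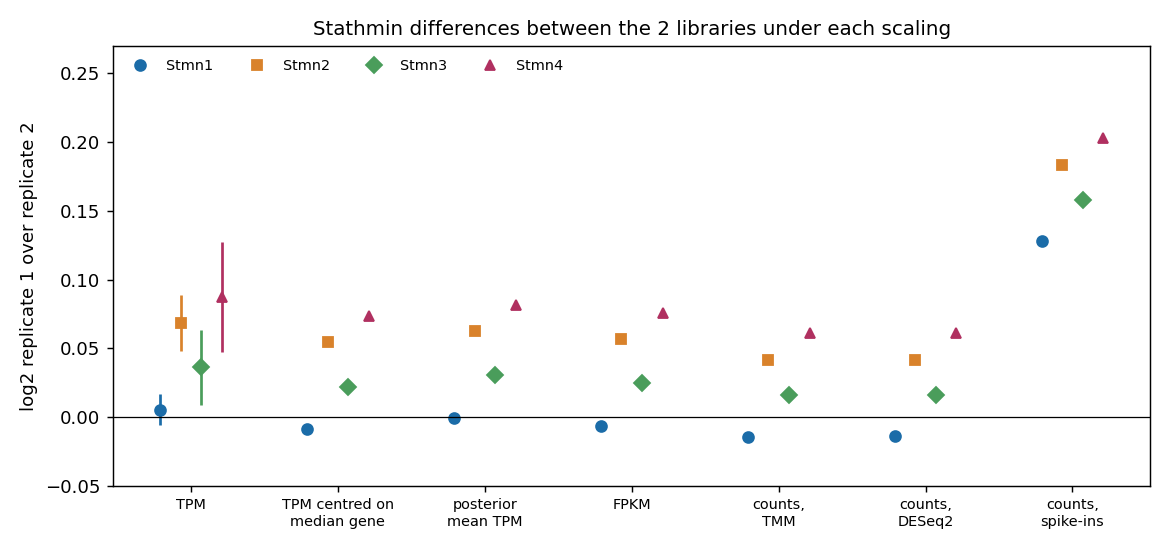
Log2 ratio of replicate 1 over replicate 2 for each stathmin gene under 7 scalings of the libraries, with the 95% counting interval drawn as a line on the TPM points. Stmn2, Stmn3 and Stmn4 lie above 0 under each scaling and Stmn1 lies near 0, and scaling by the spike-ins moves all 4 genes upward to between 0.13 and 0.20.

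Marker lists of the tissue were compared between the libraries in the same way. The summed level of the 8 hindbrain markers was 171 TPM in replicate 1, against 196 TPM in replicate 2, with 3 of 8 lower in replicate 1 with disjoint intervals, against 4.45% of genes at 1 TPM or more. Of these, Atoh1 (a rhombic lip transcription factor, named after its values were seen) had 6.35 TPM in replicate 1 and 16.4 TPM in replicate 2. Neuron markers summed to 3794 and 3665 TPM in replicates 1 and 2. Progenitor markers summed to 2685 and 2937 TPM, but the other 8 summed to 898 and 894 TPM without Fabp7, a radial glia gene with 1787 and 2042 TPM. The progenitor list went both ways, with 3 of 9 higher in replicate 1 with disjoint intervals and 2 lower. Their part in the small stathmin differences was not tested.

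Genes that act with the stathmins were taken from fixed lists, ordered by role, and are given first by level. Tubulins, the substrate that stathmins sequester, were abundant. Of 12 genes 11 were detected, with a median of 541 TPM. Tuba1a, the main alpha-tubulin of young neurons, had 13903 ± 446 TPM, Tubb2a 1659 ± 102 TPM and the neuronal Tubb3 1509 ± 48.1 TPM, and Tuba8 was lowest at 0.325 ± 0.00707 TPM (SD, n = 2). The summed level of the 12 tubulins was 21260.0 TPM in replicate 1, against 20196 TPM in replicate 2, and that of the 4 stathmins was 7889 and 7779 TPM.

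Kinases known to phosphorylate stathmins were far lower in level. Of 15 genes 14 were detected, with a median of 43.5 TPM. Prkaca, a catalytic subunit of protein kinase A, led at 153 ± 1.44 TPM. Pak1, a kinase downstream of Rac and Cdc42, had 99.1 ± 0.445 TPM, and Mapk13 was lowest at 0.745 ± 0.148 TPM (SD, n = 2). The 3 palmitoyl transferases were all detected, from Zdhhc3 at 65.2 ± 0.240 TPM and Zdhhc7 at 24.3 ± 0.332 TPM down to Zdhhc15 at 4.00 ± 0.318 TPM (SD, n = 2). Their levels lay below that of each stathmin that carries the cysteine codons.

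Other regulators of microtubule length had lower medians than the lowest stathmin. Among 11 stabilising proteins, all detected with a median of 244 TPM, the collapsin response mediators Dpysl2 and Dpysl3 had 1028 ± 13.8 and 858 ± 13.97 TPM and the microtubule-associated protein gene Map1b had 641 ± 21.3 TPM, while Map7 was lowest at 3.92 ± 0.127 TPM (SD, n = 2). Depolymerising kinesins, which like stathmins favour shrinkage, were low, with 4 of 5 detected and a median of 5.91 TPM. Kif2a had 34.9 ± 1.82 TPM, Kif2c 12.7 ± 1.12 TPM and Kif18a 5.91 ± 0.742 TPM (SD, n = 2), and Kif2b was at 0 counts in both libraries. The REST repressor complex, which is known to silence Stmn2 outside neurons, was detected in all 6 listed genes with a median of 23.9 TPM. Its histone deacetylases Hdac2 and Hdac1 had 354 ± 12.1 and 91.4 ± 1.56 TPM, and the corepressors Rcor2 and Rcor1 had 25.5 ± 1.07 and 4.36 ± 0.247 TPM (SD, n = 2). Rest itself, named after its values were seen, was below the list median, at 8.1 ± 0.184 TPM (SD, n = 2).

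Between the libraries, 7 of the 11 detected tubulins were higher in replicate 1 with disjoint intervals and none was lower, and the same held for 5 of the 11 stabilising proteins, against the 4.82% of genes at 1 TPM or more and 9.49% at 100 TPM or more given above. No kinase, palmitoyl transferase or depolymerising kinesin had disjoint intervals, and 1 gene of the REST complex was lower in replicate 1 with disjoint intervals. None of these genes passed 1.5-fold. The median log2 ratio was 0.14 for the 4 depolymerising kinesins detected, 0.07 for tubulins, 0.06 for the REST complex, 0.05 for stabilising proteins, 0.03 for palmitoyl transferases and 0.01 for kinases, and it was 0.05 for the stathmins. Of the 4 kinesins 3 were higher in replicate 1, while Kif2a, the highest in level, had a ratio of -0.10. The kinesin list summed to 57.7 and 57.2 TPM in replicates 1 and 2. The REST list, with 4 of 6 genes higher in replicate 1, summed to 499.7 and 510.9 TPM. These genes are expressed in the same 2 libraries, so their ratios are not independent of the stathmin ratios.

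**Figure D5:**
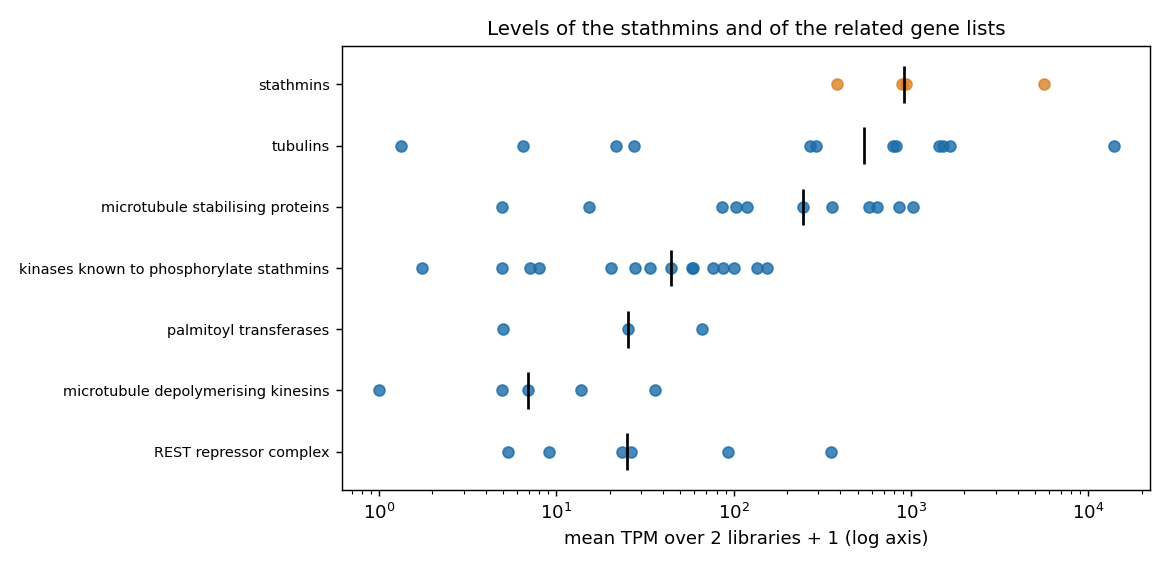
Mean TPM + 1 over the 2 libraries, on a log axis, for each gene of the stathmin family (orange) and of 6 lists of related genes (blue), with the median of each row as a black line. The medians of the kinases (43.5 TPM), palmitoyl transferases (24.3 TPM), depolymerising kinesins (5.91 TPM) and the REST complex (23.9 TPM) lie below the lowest stathmin at 383 TPM, while the tubulin Tuba1a at 13903 TPM lies above Stmn1 at 5628 TPM.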

How the data were processed

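Total RNA libraries of E13.5 mouse hindbrain (2 replicates, 1 group) were analysed from the authors' gene and transcript tables. Estimated counts (expected counts, not whole numbers), TPM and FPKM per gene and transcript, a posterior mean TPM with the bounds of a credibility interval, and the percent of a gene's TPM per transcript were deposited by the authors, with lengths and posterior SDs of counts, per the file headers. TPM is scaled over every row, so that it includes the ERCC spike-ins, which held 5.50% of TPM in replicate 1 and 5.99% in replicate 2. Genome mm10 and GENCODE M4 were used, per the submitters' notes beside the tables. Not given in the sources used here are the aligner, the counting program and the strand setting.

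Names, gene types and sequences came from GENCODE M21 (GRCm38). Of the 43346 Ensembl genes 42462 matched by identifier, and all 19 stathmin transcripts had the same length in both annotations. The members and gene lists were chosen with earlier results of these data known. Named were all members, their transcripts at 5% or more, genes of like symbol or overlapping span, the 3 highest and the lowest gene of each list, and the nearest protein-coding genes in level; some genes that this rule names are not reported here. Levels were compared as log2(TPM + 1), with the mean and SD of 2 libraries and no test, since there is 1 group. CPM was computed from the deposited estimated counts over Ensembl genes. Counts were rounded before TMM factors (edgeR 4.0.16) and size factors (DESeq2 1.42.0) were computed in R 4.3.3. Other steps used Python 3.11.15, numpy 2.4.6, pandas 2.3.3 and matplotlib 3.10.9. The 1.5-fold call was tried on simulated counts that held counting error only, and the call by disjoint intervals was not simulated. Totals were 33080194 and 38756411 estimated counts in replicates 1 and 2. Counting intervals and the floor of 3 counts cover counting error only. Alternatives were other units, scalings, pseudocounts, filters and each library alone.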

Additional observations from a re-analysis of the deposited data

How the results depend on the processing

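Of 161 alternative values for 24 results, 114 stayed within the limit set for the result, 46 moved by more and 1, a difference between genes, reversed. The limit was the SD between the libraries for levels, pair differences, leading shares and ranks. For a library ratio it was the 95% counting interval, and for a count of genes or transcripts it was 1.5 times. For levels, pair differences and leading shares, the value of a single library always lies within that SD, so its staying there carries no information. Apart from the reversed difference, 5 values of the Stmn1 library ratio, which passed no call, changed sign and are counted among the 114 and the 46. With CPM in place of TPM, the log2 difference of Stmn2 minus Stmn3 reversed to 0.83, against -0.07, and the differences from Stmn1 became 1.65 for Stmn2, 2.47 for Stmn3 and 3.57 for Stmn4. Stmn2 minus Stmn4 became 1.92 and Stmn3 minus Stmn4 became 1.10, and the ranks of Stmn2, Stmn3 and Stmn4 became 64, 125 and 470. The other 47 of 48 alternative pair differences kept their sign. Restriction to protein-coding transcripts, chosen after seeing the data, gave log2 levels of 12.45 for Stmn1 and 9.74 for Stmn2 and differences of 2.71 for Stmn1 minus Stmn2, -0.13 for Stmn2 minus Stmn3 and 1.18 for Stmn2 minus Stmn4. Log2 levels of Stmn1 to Stmn4 were 12.46, 9.80, 9.87 and 8.58. They moved to 11.79, 9.13, 9.20 and 7.91 with FPKM and to 12.54, 9.88, 9.95 and 8.67 after rescaling to Ensembl genes, and the posterior mean TPM gave 12.42 for Stmn1 and 9.83 for Stmn3.
The log2 ratio of replicate 1 over replicate 2 crossed 0 for Stmn1, to -0.0144 with TMM, -0.0141 with DESeq2, -0.00862 with median centring, -0.000497 with the posterior mean TPM and -0.00625 with FPKM, against 0.00547, and it was 0.0414 for Stmn2 with TMM and 0.0417 with DESeq2. Spike-in scaling gave 0.13, 0.18, 0.16 and 0.20 for Stmn1 to Stmn4. The count of genes past 1.5-fold, 582, became 1015 with no filter, 158 at 5 TPM, 6 at 100 TPM, 246 with TMM-scaled CPM (another unit as well as another scaling), 983 with a pseudocount of 0.1 and 202 with one of 5. By counts the leading transcripts held 99.2%, 98.1% and 62.3% of Stmn1, Stmn2 and Stmn4. Among protein-coding genes the ranks were 6, 86, 74 and 307.
Leaving out a library gave log2 levels of 12.46 to 12.46, 9.76 to 9.83, 9.85 to 9.89 and 8.54 to 8.63 for Stmn1 to Stmn4. The pair differences were 2.63 to 2.69 for Stmn1 minus Stmn2, 2.57 to 2.61 for Stmn1 minus Stmn3, 3.83 to 3.92 for Stmn1 minus Stmn4, -0.09 to -0.05 for Stmn2 minus Stmn3, 1.21 to 1.22 for Stmn2 minus Stmn4 and 1.26 to 1.31 for Stmn3 minus Stmn4. Leading shares were 98.75% to 98.83%, 95.62% to 96.38% and 60.43% to 61.86% for Stmn1, Stmn2 and Stmn4, and ranks were 10 for Stmn1 in both, 95 to 107 for Stmn2, 89 to 95 for Stmn3 and 335 to 358 for Stmn4. No paired analysis was possible because the libraries form 1 group. Depth limits the minor Stmn4 transcripts, some of which rest on fewer than 100 counts.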

Other observations

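Set against neuronal tubulin within each library, the neuronal stathmins had similar proportions in both libraries. Stmn2 was 0.590 of the TPM of Tubb3 in replicate 1 and 0.589 in replicate 2, Stmn3 was 0.613 and 0.625, and Stmn4 was 0.256 and 0.252. Stmn1 was 3.65 and 3.81 times Tubb3, and 0.397 and 0.413 of Tuba1a, in replicates 1 and 2. Against Tuba1a, Stmn2 was 0.0641 and 0.0640, Stmn3 0.0665 and 0.0679 and Stmn4 0.0277 and 0.0273. Small differences between these libraries were common at such levels. Over the genes that averaged at least 100 TPM, the median absolute log2 ratio between the libraries was 0.0421. With 2 libraries these proportions are a description.

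Markers listed for other cell types were detected in the tissue as well. The sensory ganglion markers, all 5 of them detected, included Pou4f1 at 67.9 ± 0.509 TPM and Prph at 54.3 ± 8.33 TPM, with the nociceptor channel gene Scn10a lowest at 1.27 ± 0.156 TPM (SD, n = 2). The summed level of the 4 erythroid genes was 10273 TPM in replicate 1, against 10969 TPM in replicate 2, above the 7889 and 7779 TPM of the 4 stathmins. Microglia markers summed to 81.6 and 99.7 TPM, endothelial markers to 105 and 112 TPM, and oligodendrocyte lineage markers to 42.1 and 35.3 TPM in replicates 1 and 2. Which cells these marker transcripts came from, and the part of such cells in the stathmin levels, was not tested.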
